A study of Homo sapiens with 12 samples.

Results

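The 10 genes described here encode the cytokines IL6 and LIF, the receptor chains IL6R, IL6ST and OSMR, the transcription factor STAT3, its inhibitor SOCS3, and the chemokines CXCL1, CXCL2 and CXCL8. They were chosen by symbol from a table of raw counts for 16599 genes, and each of the 10 was found there once by its Ensembl gene ID. The table covers A549 and H1650, which are established human lung adenocarcinoma cell lines. SRSF2 is a serine/arginine-rich splicing factor that binds exons and directs their inclusion. Polyadenylated RNA was sequenced from 3 libraries in each of 4 groups: H1650 cells over-expressing SRSF2, untreated H1650 cells, A549 cells over-expressing SRSF2, and untreated A549 cells. The labels give no time point, no construct, and no statement of whether the SRSF2 cells were a pool or a clone. Control libraries are labelled untreated but titled NC, without an explanation, and it is unclear if they received an empty construct.

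IL6 binds IL6R and then the shared signalling chain gp130, the product of IL6ST. LIF and oncostatin M signal through gp130 paired with LIFR or OSMR. The activated receptor recruits Janus kinases, which phosphorylate STAT3, and STAT3 induces SOCS3, which binds gp130 and its kinases and shuts signalling off. CXCL1, CXCL2 and CXCL8 carry the Glu-Leu-Arg (ELR) motif, bind CXCR2 and attract neutrophils. IL6 and these chemokines are commonly transcribed under NF-kB, and many of their messenger RNAs are short-lived because of AU-rich elements.

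Each library held 23876899 to 32079027 counts, so that 3 counts corresponded to 0.0935 to 0.126 CPM, counts scaled to a library of 1e+06. In a principal component analysis, component 1 (89.1% of the variance) told H1650 from A549. On component 2, with 5.58% of the variance, H1650 SRSF2 replicate 3 lay at -33.8, against -45.2 and -42.2 for replicates 1 and 2. The SRSF2 libraries of H1650 also had the largest common biological coefficient of variation, 0.0559, against 0.0298 to 0.0344 in the other groups. Of 8 epithelial markers 7 were in the table, and their summed CPM was 10284 to 10841 in H1650 SRSF2, 10783 to 10985 in untreated H1650, 9502 to 9581 in A549 SRSF2 and 9823 to 10463 in untreated A549 libraries. EPCAM, CDH1 and CLDN4 made up little of the sum in A549, at no more than 39.3 CPM in either group. Of 12 leukocyte markers CD14 and ITGAM were in the table, with sums of 0.686 to 1.31 CPM in H1650 SRSF2, 0.461 to 0.611 in untreated H1650, 13.2 to 13.9 in A549 SRSF2 and 11.3 to 12.4 in untreated A549 libraries. ITGAM rose in both lines (log2 1.87 in H1650 and 0.73 in A549), while CD14 had a log2 value of 0.30 in H1650 (adjusted p = 0.491) and fell by 0.63 in A549 (adjusted p = 0.00235), and the part of these shifts in the results below was not tested. In bulk RNA, a change in the number of cells that make a transcript and a change in RNA per cell cannot be told apart. SRSF2 itself was not analysed here.

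In H1650 all 10 genes were higher with SRSF2 over-expression, and the rises ran from 1.14-fold for STAT3 to 18.4-fold for IL6. Their SRSF2 libraries lay above every untreated library for all 10 genes. STAT3 rose more in A549 than in H1650 (log2 0.48 against 0.19), and for OSMR the lines did not differ in response (adjusted p = 0.0889 by edgeR). For the other genes the change was smaller in A549. Called rises covered 7 genes in A549, led by IL6 and SOCS3, while LIF, IL6R and CXCL1 did not pass the test. These counts come from edgeR's quasi-likelihood test over 15991 genes, with p-values adjusted by the Benjamini-Hochberg method and a gene called at an adjusted p under 0.05. Such calls were common: 62.3% of the genes tested were called in H1650, 31.0% as higher, and 32.3% were called in A549, 16.4% as higher. The groups did not overlap in CPM for 64.7% of all genes in H1650 (32.1% with SRSF2 higher), and for 45.6% in A549 (22.7% with SRSF2 higher), where 6 of the 10 genes did not overlap. Called rises of 1 or more on the log2 scale were rarer, at 7.27% of all genes in H1650 and 1.75% in A549. In H1650 6 of the 10 genes reached it (IL6, LIF, SOCS3, CXCL1, CXCL2 and CXCL8), and in A549 IL6 and SOCS3 did. The A549 rise of IL6 rests on 5 to 23 counts a library, and its groups overlap. Its call there was lost when some single A549 libraries were left out. The median log2 fold change of the 10 genes was 1.72 in H1650 and 0.39 in A549, against 0.00 over all genes in either line. Without H1650 SRSF2 replicate 3, all 10 genes were still called higher in H1650.

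**Figure D1:**
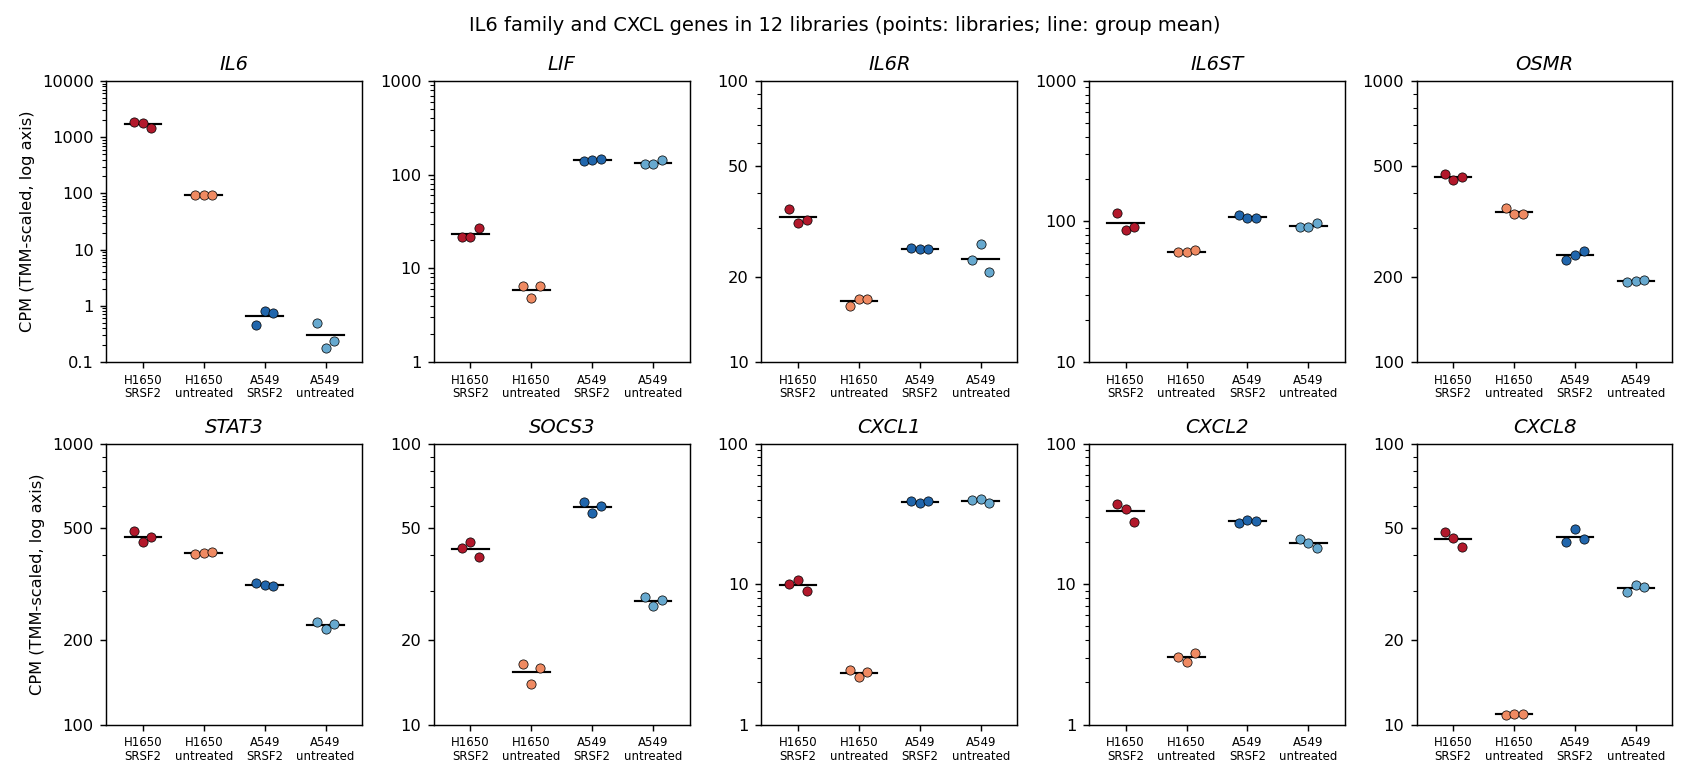
TMM-scaled CPM of the 10 genes on a log axis, with 1 point per library, a line at each group mean, and groups in the order H1650 SRSF2, H1650 untreated, A549 SRSF2 and A549 untreated. In H1650 the SRSF2 points lie above all untreated points in every panel, while the A549 groups overlap for IL6, LIF, IL6R and CXCL1.

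Together the 10 genes took 0.256% to 0.296% of all counts in H1650 SRSF2 libraries and 0.0953% to 0.0971% in untreated H1650 libraries. In A549 their share was 0.103% to 0.104% with SRSF2 and 0.0802% to 0.0821% without. IL6 alone supplied 55.5% to 60.9% of these counts in H1650 SRSF2 libraries and 9.77% to 9.86% in untreated H1650 libraries. In A549 it supplied 0.0449% to 0.0797% with SRSF2 and 0.0227% to 0.0619% without.

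IL6 (GRCh38 chromosome 7, 22725884 to 22732002, plus strand) is the founding cytokine of the family. In H1650 its level was 1901, 1817 and 1486 CPM in the SRSF2 libraries, against 95.2, 93.6 and 93.5 CPM in the untreated libraries. The lowest SRSF2 value belongs to replicate 3, and even that library lay far above the untreated ones, which hardly varied. The log2 fold change was 4.20 (SE 0.06, adjusted p = 1.98e-33), which placed IL6 at rank 28 of 15991 genes by size of rise. In A549 IL6 was near the limit of detection, with 0.450, 0.800 and 0.746 CPM in the SRSF2 libraries and 0.489, 0.177 and 0.239 CPM in the untreated libraries. These values rest on 11, 23 and 19 counts with SRSF2 and on 14, 5 and 7 counts without, and the groups overlap. The fitted log2 fold change was 1.15 (SE 0.43, adjusted p = 0.0374). Leaving out A549 SRSF2 replicate 2 or 3, or untreated replicate 2 or 3, ended this call, with adjusted p of 0.0984 to 0.146 and log2 values of 0.89 to 1.07. STEAP1B lies on the opposite strand and overlaps IL6 exons. It had 64 to 108 counts in H1650 libraries and 8 to 24 in A549 libraries, and since the strand setting of the counting is not given in the sources used here, reads of the overlap cannot be assigned between the genes.

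LIF (chromosome 22, 30240447 to 30246851, minus strand), the leukemia inhibitory factor, signals through LIFR and gp130. With SRSF2, H1650 libraries had 21.8, 21.8 and 26.6 CPM of LIF, against 6.43, 4.82 and 6.49 CPM untreated. Here replicate 3 was the highest SRSF2 library, and the groups did not overlap. The log2 fold change was 1.99 (SE 0.09, adjusted p = 1.04e-19). A549 made far more LIF in every library, 141, 144 and 146 CPM with SRSF2 and 131, 129.8 and 143 CPM without. The highest untreated A549 library lay above the lowest SRSF2 library, so the groups overlap. Their log2 difference of 0.10 (95% interval -0.01 to 0.20, adjusted p = 0.185) did not pass the test. Few counts fell on the antisense genes LIF-AS1 and LIF-AS2, at most 31 in a library.

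IL6R (chromosome 1, 154405193 to 154469450, plus strand) encodes the IL6-binding chain. Its level in H1650 was 35.1, 31.3 and 32.0 CPM with SRSF2 and 15.8, 16.7 and 16.7 CPM without. Every SRSF2 library thus lay well above the untreated ones, with a log2 fold change of 1.00 (SE 0.07, adjusted p = 2.99e-14). In A549 it was 25.3 CPM in each of the 3 SRSF2 libraries, against 22.99, 26.2 and 20.8 CPM in the untreated libraries. The untreated A549 libraries spread on both sides of the SRSF2 ones, and the log2 difference of 0.12 (95% interval -0.02 to 0.26) missed the threshold at adjusted p = 0.219. Without untreated A549 replicate 2 it was 0.21 and was called (adjusted p = 0.0374).

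IL6ST (chromosome 5, 55935095 to 55994993, minus strand) encodes gp130, the chain shared by the whole family. H1650 SRSF2 libraries had 114, 87.1 and 91.2 CPM of IL6ST and untreated H1650 libraries 60.2, 60.7 and 62.1 CPM. Replicate 1 was the highest of the SRSF2 libraries, and the groups did not overlap (log2 0.68, SE 0.06, adjusted p = 1.14e-11). A549 SRSF2 libraries had 112, 106 and 106 CPM and untreated A549 libraries 91.9, 91.2 and 97.0 CPM. Here too the groups were apart, by a smaller step (log2 0.21, SE 0.06, adjusted p = 0.0068). A share of 2.81% of the 50-base stretches of IL6ST transcripts also occurs in other genes, AC015922.3 (137 stretches) and the pseudogene IL6STP1 (134 stretches), where reads could be split.

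OSMR (chromosome 5, 38845858 to 38945596, plus strand) encodes the oncostatin M receptor chain and was, per kilobase, the most abundant of the receptor chains in all 4 groups. Its level was 467, 445 and 456 CPM in H1650 SRSF2 libraries, against 353, 336 and 336 CPM in untreated H1650 libraries. In A549 it was 231, 241 and 248 CPM with SRSF2 and 192, 193 and 195 CPM without. Neither line showed an overlap of its groups. The log2 fold changes were 0.42 (SE 0.04, adjusted p = 2.9e-12) in H1650 and 0.31 (SE 0.04, adjusted p = 3.24e-08) in A549. RICTOR, on the opposite strand, overlaps OSMR exons and had 2171 to 2420 counts in H1650 SRSF2, 1520 to 1696 in untreated H1650, 2417 to 3112 in A549 SRSF2 and 1564 to 1648 in untreated A549 libraries. OSMR itself had 5471 to 13980 counts, and the part of RICTOR reads in its values was not tested.

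STAT3 (chromosome 17, 42313324 to 42388568, minus strand) carries the gp130 signal to the nucleus. In H1650 it stood at 487, 445 and 465 CPM with SRSF2, against 407, 407 and 410 CPM without. The rise was small but larger than the spread between libraries (log2 0.19, SE 0.04, adjusted p = 1.82e-05). In A549 it stood at 319, 314 and 313 CPM with SRSF2, against 232, 219 and 228 CPM without. The groups were well apart, and the log2 fold change of 0.48 (SE 0.04, adjusted p = 1.86e-12) exceeded that in H1650.

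SOCS3 (chromosome 17, 78356778 to 78360077, minus strand), a STAT3-induced inhibitor of gp130, rose in both lines by more than a factor of 2. H1650 SRSF2 libraries had 42.5, 44.6 and 39.4 CPM of SOCS3 and untreated H1650 libraries 16.4, 13.96 and 15.9 CPM. A549 SRSF2 libraries had 61.9, 56.5 and 59.9 CPM and untreated A549 libraries 28.5, 26.4 and 27.9 CPM. In each line the SRSF2 libraries were clear of the untreated ones. The log2 fold change was 1.45 (SE 0.07, adjusted p = 1.2e-19) in H1650 and 1.11 (SE 0.06, adjusted p = 3.62e-16) in A549. By size of rise SOCS3 ranked 787 of 15991 genes in H1650 and 266 in A549.

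The 3 chemokine genes lie close together on chromosome 4: CXCL8 at 73740506 to 73743716 (plus strand), CXCL1 at 73869393 to 73871242 (plus strand) and CXCL2 at 74097035 to 74099293 (minus strand). In H1650 all 3 were low without SRSF2 and several times higher with it. CXCL1 had 9.998, 10.7 and 8.91 CPM in H1650 SRSF2 libraries, against 2.44, 2.18 and 2.38 CPM untreated. CXCL2 had 36.9, 34.5 and 27.7 CPM, against 3.02, 2.81 and 3.21 CPM untreated. CXCL8, also known as interleukin 8, had 48.5, 46.0 and 43.0 CPM, against 10.9 CPM in each untreated library. Replicate 3 was the lowest SRSF2 library for all 3 genes, and no group overlapped with its counterpart. CXCL2 rose most, with a log2 fold change of 3.45 (SE 0.10, adjusted p = 1.54e-24), or 10.9-fold. CXCL1 and CXCL8 each rose by 2.07 on the log2 scale (SE 0.11 and 0.07, adjusted p = 4.73e-18 and 4.22e-24).

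In A549 the 3 genes parted. CXCL1 had 39.0, 37.9 and 38.8 CPM with SRSF2 and 39.6, 40.6 and 37.6 CPM without. These groups overlap, and the log2 difference was -0.03 (95% interval -0.15 to 0.09, adjusted p = 0.776). CXCL2 had 27.4, 28.5 and 28.2 CPM with SRSF2 and 20.9, 19.7 and 18.1 CPM without, a log2 fold change of 0.52 (SE 0.08, adjusted p = 4.2e-06). CXCL8 had 44.6, 49.5 and 45.7 CPM with SRSF2 and 29.8, 31.4 and 30.9 CPM without, a log2 fold change of 0.60 (SE 0.06, adjusted p = 3.45e-10). For CXCL2 and CXCL8 each SRSF2 library lay above each untreated one. CXCL1, CXCL2 and CXCL3 are near-identical in places: 12.5% of the 50-base stretches of CXCL2 transcripts and 4.81% of those of CXCL1 occur in another gene, mostly one of these 3, while CXCL8, IL6, LIF and SOCS3 share none. Values of CXCL1 and CXCL2 are to that extent uncertain.

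**Figure D2:**
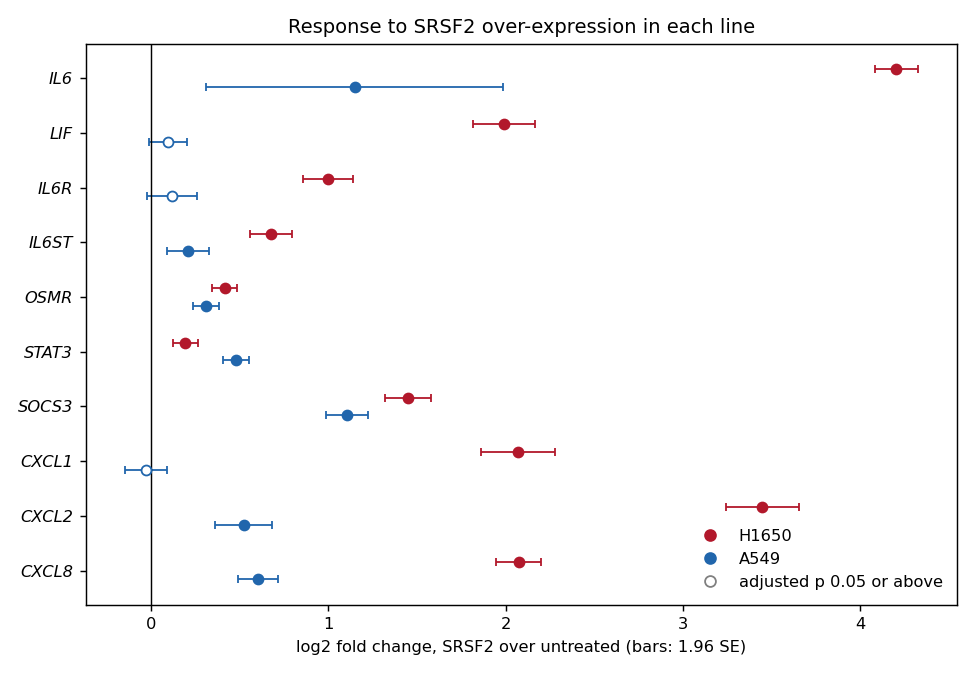
log2 fold change of SRSF2 over untreated libraries for the 10 genes in H1650 (red) and A549 (blue), with bars of 1.96 SE and open points where the adjusted p was 0.05 or above. The H1650 point lies to the right of the A549 point for every gene other than STAT3, and the IL6 bar in A549 is the widest.

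Among the CXC chemokines with the ELR motif, 5 of 7 listed genes were in the table, and levels per kilobase of exon allow them to be set against each other. Their summed level was 55.4, 53.1 and 45.3 CPM per kilobase in H1650 SRSF2 libraries, against 9.13, 8.74 and 9.19 CPM per kilobase in untreated H1650 libraries. In A549 the sum was 239.8, 239 and 234 CPM per kilobase with SRSF2 and 195, 193 and 191 CPM per kilobase without. The lines drew this sum from different genes. In A549 CXCL5, another CXCR2 ligand, supplied 66.9% to 68.6% with SRSF2 and 65.9% to 67.8% without. In H1650 CXCL5 supplied 0.113% to 0.443% with SRSF2 and 1.80% to 1.84% without. CXCL2 supplied 40.7% to 44.4% in H1650 SRSF2 libraries and 21.5% to 23.3% in untreated H1650 libraries, while CXCL8 supplied 38.1% to 41.7% with SRSF2 and 52.1% to 54.8% without. The share of CXCL1 in H1650 was 13.9% to 15.5% with SRSF2 and 19.2% to 20.6% without. CXCL3, the closest relative of CXCL2, supplied under 4% in every library. Its level rose in H1650, to 2.95 ± 0.527 CPM with SRSF2 against 0.58 ± 0.0557 CPM untreated (SD, n = 3 each, log2 2.32, SE 0.20, adjusted p = 5.54e-12). CXCL5 rose in A549, to 407 ± 10.3 CPM against 327 ± 4.15 CPM (SD, n = 3 each, log2 0.32, SE 0.04, adjusted p = 4.21e-07).

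**Figure D3:**
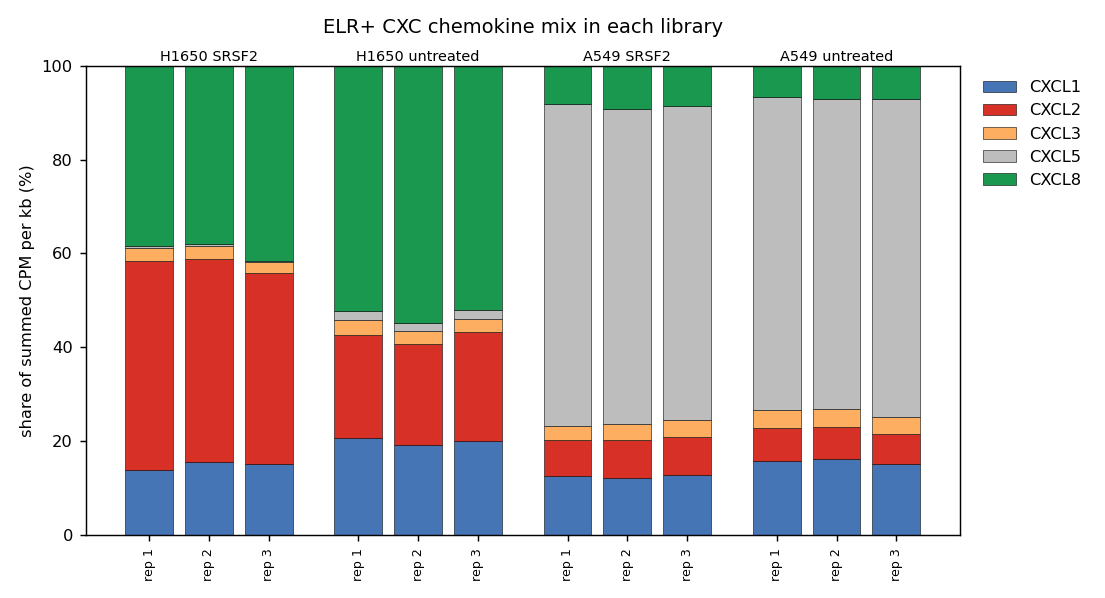
Share of the summed CPM per kilobase taken by CXCL1, CXCL2, CXCL3, CXCL5 and CXCL8 in each of the 12 libraries, as stacked bars that sum to the whole. CXCL5 fills 65.9% to 68.6% of every A549 bar, and in H1650 the CXCL2 segment is 40.7% to 44.4% with SRSF2 against 21.5% to 23.3% untreated.

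The promoters of IL6, CXCL1, CXCL2 and CXCL8 are shown because these genes rose together in H1650 and share a short NF-kB-type motif. Each sequence is the 250 bases before the RefSeq start on GRCh38.p14, read 5′ to 3′ on the strand of the gene: chr7:22726950-22727199 (plus) for IL6, chr4:73869143-73869392 (plus) for CXCL1, chr4:74099196-74099445 (minus) for CXCL2 and chr4:73740319-73740568 (plus) for CXCL8. Capitals mark matches to GGNNTTTCC, searched on both strands. The GENCODE 29 genes begin upstream of these RefSeq starts for IL6, CXCL2 and CXCL8, so that in that annotation the whole window of IL6, and part of those of CXCL2 and CXCL8, lies within the gene.
IL6: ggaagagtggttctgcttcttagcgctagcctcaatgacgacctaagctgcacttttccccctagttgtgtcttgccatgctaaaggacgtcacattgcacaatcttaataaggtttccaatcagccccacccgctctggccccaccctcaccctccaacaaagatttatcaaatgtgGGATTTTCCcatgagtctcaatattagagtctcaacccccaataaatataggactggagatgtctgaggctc
CXCL1: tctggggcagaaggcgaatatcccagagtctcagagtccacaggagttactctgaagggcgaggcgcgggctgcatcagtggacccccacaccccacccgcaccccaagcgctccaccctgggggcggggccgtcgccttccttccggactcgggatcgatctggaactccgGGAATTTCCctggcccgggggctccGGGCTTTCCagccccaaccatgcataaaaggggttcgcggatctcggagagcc
CXCL2: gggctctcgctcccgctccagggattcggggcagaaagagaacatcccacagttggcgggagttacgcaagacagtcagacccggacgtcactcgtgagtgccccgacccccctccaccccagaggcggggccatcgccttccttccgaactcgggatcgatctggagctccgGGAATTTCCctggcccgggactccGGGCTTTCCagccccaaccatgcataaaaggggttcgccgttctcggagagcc
CXCL8: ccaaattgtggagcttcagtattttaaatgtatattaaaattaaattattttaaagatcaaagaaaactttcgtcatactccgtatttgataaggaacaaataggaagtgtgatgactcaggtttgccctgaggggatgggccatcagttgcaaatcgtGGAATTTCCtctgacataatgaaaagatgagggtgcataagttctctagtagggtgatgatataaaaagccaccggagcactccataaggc
The matches lie at positions -72 to -64 in IL6, -78 to -70 and -53 to -45 in CXCL1, -77 to -69 and -53 to -45 in CXCL2, and -91 to -83 in CXCL8, counted back from the start. CXCL1, CXCL2 and CXCL8 hold the same GGAATTTCC, while IL6 holds GGATTTTCC. CXCL1 and CXCL2 also share an unbroken run of 42 bases that begins at -57 in both and takes in their second match, GGGCTTTCC. Of 35116 RefSeq promoter windows of this length, 5.48% hold the motif. The promoters shown were chosen partly for holding it, so this share is no test of them. It was found in none of the windows of IL6R, IL6ST, OSMR, STAT3 and SOCS3 (2 starts), and LIF has no entry in the promoter table. The AP-1 motif TGANTCA (6.57% of windows) occurs in CXCL8 at -137 to -131, as TGACTCA. The C/EBP motif TTGCNNAA (9.05%) occurs in IL6 at -155 to -148, in CXCL2 at -188 to -181 on the other strand, and in OSMR. The STAT motif TTCNNNGAA (6.57%) occurs in none of the windows of the 9 genes that have one. These motifs were matched as letters only, and their use in these cells was not measured.

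The responses of the lines to SRSF2 were then compared directly, as the log2 fold change in H1650 minus that in A549, which draws on the same libraries as the comparisons above. Of the 10 genes 9 differed, against 47.5% of all genes (23.5% larger in H1650, 24.0% smaller). The response was larger in H1650 for 8 of them. It was largest for IL6, with a difference of 3.06 (95% interval 2.02 to 4.09, adjusted p = 1.11e-05), an interval widened by the few IL6 counts in A549. CXCL2 followed at 2.93 (SE 0.14, adjusted p = 1.71e-18), CXCL1 at 2.10 (SE 0.12, adjusted p = 8.9e-16), LIF at 1.89 (SE 0.11, adjusted p = 1.93e-16) and CXCL8 at 1.47 (SE 0.09, adjusted p = 1.11e-15). These 5 exceeded 1 on the log2 scale, a size at which 5.54% of all genes were called with the larger response in H1650. Among the receptor chains the difference was 0.88 for IL6R (SE 0.10) and 0.47 for IL6ST (SE 0.09), with adjusted p of 6.14e-09 and 2.49e-05. SOCS3 differed by 0.34 (SE 0.09, adjusted p = 0.00175). STAT3 alone among the 10 genes had the smaller response in H1650, by -0.29 (SE 0.05, adjusted p = 1.8e-05). For OSMR the difference was 0.11 (95% interval 0.01 to 0.21), with an adjusted p of 0.0889 by edgeR and 0.0488 by DESeq2.

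Untreated H1650 and untreated A549 differed in all 10 genes, as they did in 82.4% of all genes (40.1% higher in H1650, 42.3% lower). IL6, OSMR and STAT3 were higher in H1650, by 8.27 (SE 0.14), 0.82 (SE 0.04) and 0.85 (SE 0.04) on the log2 scale. The IL6 value rests on 14, 5 and 7 counts in the untreated A549 libraries, for which its SE is too small. Over all alternatives this IL6 difference ran from 3.96 to 8.80, and with single libraries left out it ran from 8.01 to 8.80. The other 7 genes were lower in untreated H1650 cells. LIF was lower by the largest step, at a log2 difference of -4.50 (SE 0.08), followed by CXCL1 at -4.07 (SE 0.09), CXCL2 at -2.69 (SE 0.11) and CXCL8 at -1.50 (SE 0.07). SOCS3 (-0.84, SE 0.07), IL6ST (-0.61, SE 0.06) and IL6R (-0.51, SE 0.07) were lower by less than a factor of 2. The highest adjusted p among the 10 genes was 1.34e-07, and the libraries of the lines overlapped for none of them, as for 84.0% of all genes.

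With SRSF2 in both lines, 9 of the 10 genes still differed between H1650 and A549, against 84.2% of all genes (40.5% higher, 43.7% lower). IL6 stood 11.32 log2 units higher in H1650 (SE 0.11). With 11, 23 and 19 IL6 counts in the A549 SRSF2 libraries, this SE is too small. Over all alternatives the IL6 difference ran from 7.91 to 11.49, and with single libraries left out it ran from 11.12 to 11.49. LIF (-2.61, SE 0.06) and CXCL1 (-1.97, SE 0.07) were lower in H1650 by smaller steps than without SRSF2. IL6R, lower in untreated H1650, was higher in H1650 SRSF2 cells than in A549 SRSF2 cells (log2 0.37, SE 0.07, adjusted p = 8.82e-06). CXCL8 did not differ beyond its spread, with a log2 difference of -0.03 (95% interval -0.14 to 0.08, adjusted p = 0.657). CXCL2 was 0.23 higher in H1650 (SE 0.08, adjusted p = 0.00657) and IL6ST lower (log2 -0.15, adjusted p = 0.0236), but for both genes, as for CXCL8, the libraries of the lines overlap. The remaining 7 genes did not overlap, against 84.0% of all genes. The CXCL2 call was lost without H1650 SRSF2 replicate 1 (log2 0.15, adjusted p = 0.0756), and the IL6ST call without H1650 SRSF2 replicate 2 or 3 or A549 SRSF2 replicate 1 (adjusted p of 0.111 to 0.309).

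Per kilobase of exon, the most abundant of the 10 genes changed with the group. IL6 reached 839 ± 106 CPM per kilobase in H1650 SRSF2 cells, against 45.5 ± 0.456 in untreated H1650, 0.321 ± 0.0911 in A549 SRSF2 and 0.146 ± 0.0798 in untreated A549 cells (SD, n = 3 each). OSMR stood at 63.6 ± 1.53, 47.7 ± 1.38, 33.5 ± 1.17 and 27.0 ± 0.208 CPM per kilobase in the same order of groups. STAT3 stood at 52.9 ± 2.37, 46.3 ± 0.226, 35.8 ± 0.381 and 25.7 ± 0.76 CPM per kilobase. For these 3 genes the groups fell in 1 order, H1650 SRSF2, H1650 untreated, A549 SRSF2 and A549 untreated, and each step passed the test. The step between the A549 groups was weak for IL6 (adjusted p = 0.0374 by edgeR), where the groups overlap and some alternatives lost the call. LIF ran the other way between the lines, at 5.90 ± 0.70 in H1650 SRSF2, 1.49 ± 0.238 in untreated H1650, 36.2 ± 0.517 in A549 SRSF2 and 33.9 ± 1.89 CPM per kilobase in untreated A549 cells. SOCS3 was highest in A549 SRSF2 cells (21.7 ± 0.992 CPM per kilobase), then in H1650 SRSF2 (15.4 ± 0.953), untreated A549 (10.1 ± 0.396) and untreated H1650 cells (5.64 ± 0.472), with each step past the test. The neighbours in level that did not differ beyond their spread were the A549 groups for LIF, IL6R and CXCL1, H1650 SRSF2 and untreated A549 for IL6ST (adjusted p = 0.34), and the SRSF2 groups of both lines for CXCL8. H1650 untreated cells were the lowest group for LIF, IL6R, IL6ST, SOCS3, CXCL1, CXCL2 and CXCL8.

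Beyond the 10 genes, 132 further genes of the gp130, chemokine and NF-kB pathways were listed, of which 97 were tested. In H1650 61 were called higher and 15 lower, with a median log2 fold change of 0.47 over the 92 that had more than 3 counts in each H1650 group. In A549 34 were higher and 9 lower, with a median of 0.12. The response was larger in H1650 for 50 of the 97 and smaller for 12. Over all genes, 31.0% were called higher and 31.3% lower in H1650, 16.4% higher and 15.9% lower in A549, and 23.5% had the larger and 24.0% the smaller response in H1650, and the counts of each list below stand against these shares.

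Of the IL6 family ligands 7 were tested, IL6 and LIF among them, and 5 rose in H1650, against 2 in A549. IL11, a gp130 cytokine, rose in H1650 to 16.9 ± 0.433 CPM against 5.90 ± 1.08 CPM untreated (SD, n = 3 each, log2 1.52, adjusted p = 8.52e-15). In A549 it rose to 9.27 ± 0.864 CPM against 6.32 ± 0.403 CPM (log2 0.56, adjusted p = 0.000175). CLCF1, a ligand of the CNTF receptor, rose in H1650 by 0.78 on the log2 scale (adjusted p = 0.00322), while its log2 value of 0.40 in A549 missed the threshold. CNTF missed it in both lines (log2 0.53 in H1650 and -0.05 in A549). Of the 7 receptor chains tested, 5 rose and 1 fell in H1650, and 4 rose in A549. LIFR, the LIF receptor, rose to 24.2 ± 2.81 CPM against 12.5 ± 0.531 CPM in H1650 and to 25.5 ± 0.893 against 19.9 ± 1.21 CPM in A549 (SD, n = 3 each, log2 0.94 and 0.35). IL11RA, the IL11 receptor, fell in H1650 by 0.46 on the log2 scale (adjusted p = 0.000231). IL31RA rose in A549 (log2 0.97, adjusted p = 1.01e-05) and had a log2 value of 0.16 in H1650 (adjusted p = 0.194).

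Downstream, the kinases and adaptors had 2 genes higher and 4 lower of 8 in H1650, and 1 higher in A549, against 31.0% and 31.3% of all genes in H1650 and 16.4% in A549. JAK2, a gp130-associated kinase, rose in H1650 (log2 0.79, adjusted p = 1.09e-12) and had a log2 value of -0.10 in A549 (adjusted p = 0.342). JAK1 rose in A549 (log2 0.29, adjusted p = 8.98e-08). PTPN11, GAB1 and SOS1, which link gp130 to the Ras pathway, fell in H1650 by 0.33, 0.41 and 0.34 on the log2 scale. STAT5B, a transcription factor related to STAT3, fell by 0.20 on the log2 scale in H1650 (adjusted p = 0.000998) and rose in A549 (log2 0.38, adjusted p = 3.68e-08), and the difference of these responses was -0.58 (adjusted p = 9.74e-09). Among 10 gp130 inhibitors, SOCS3 included, 6 rose and 3 fell in H1650, and 4 rose and 2 fell in A549. SOCS2 rose in both lines (log2 0.73 and 0.99), as did SOCS5 (0.80 and 0.33) and SOCS6 (0.42 and 0.18). SOCS4 rose in H1650 by 0.70, and PIAS3, an inhibitor of STAT3 binding to DNA, fell by 0.55 there and by 0.15 in A549.

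Of 18 genes known to respond to STAT3, 13 rose and none fell in H1650, against 31.0% and 31.3% of all genes. Their median log2 fold change there was 0.67 over the 15 with more than 3 counts in each H1650 group. In A549 5 rose and 5 fell, against 16.4% and 15.9% of all genes, with a median of 0.06. PIM1, a kinase, rose to 422 ± 30.4 CPM against 119 ± 1.19 CPM in H1650 and to 49.9 ± 2.72 against 34.4 ± 1.52 CPM in A549 (SD, n = 3 each, log2 1.83 and 0.54). FOS, an AP-1 subunit, rose in H1650 (log2 3.28, SE 0.12, adjusted p = 6.79e-22), while its log2 value in A549 was 0.02 (adjusted p = 0.951). The anti-apoptotic gene MCL1 rose by 1.13 in H1650 and 0.32 in A549, and the interferon regulatory factor IRF1 by 1.65 and 0.35. HIF1A rose by 0.99 and 0.74. The 5 genes that fell in A549 were CCND1, SERPINA1, FGA, FGB and FGG, the last 3 being the fibrinogen chains. SERPINA1, at few counts, had 0.394 ± 0.0708 CPM in A549 SRSF2 cells against 0.764 ± 0.171 CPM in untreated A549 cells (log2 -0.95), and it rose in H1650 by 0.67.

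Of 12 other inflammatory cytokines 8 were higher and 2 lower in H1650, and 2 were higher in A549, where 16.4% of all genes were. Among the called rises in H1650, CSF3 had 26 counts over the 3 SRSF2 libraries and 3 over the untreated ones. CSF2 was also low there, at 0.467 CPM with SRSF2 and 0.0775 CPM untreated. TNF was detected at 2.94 ± 0.349 CPM in H1650 SRSF2 cells against 0.416 ± 0.0459 CPM in untreated H1650 cells (SD, n = 3 each, log2 2.80, adjusted p = 3.64e-10). In A549 TNF stood at 0.219 ± 0.117 CPM with SRSF2 and 0.221 ± 0.158 CPM without. CSF1, the macrophage growth factor, rose in both lines (log2 1.25 and 0.27). IL15 and IL23A rose in H1650 by 1.52 and 1.81. CCL2, a monocyte chemokine, fell in H1650 to 0.684 ± 0.299 CPM against 1.95 ± 0.379 CPM and rose in A549 to 58.0 ± 5.84 CPM against 48.6 ± 3.23 CPM, and this difference passed the test (-1.73, adjusted p = 1.05e-06). Of 3 CXC chemokine receptors tested, CXCR4 and ACKR3 were called higher in H1650, and 1 of the 3 was called there without H1650 SRSF2 replicate 3. CXCR4 had 31 counts over the 3 SRSF2 libraries and 3 over the untreated ones. CXCR1 and CXCR2, the receptors of CXCL8, were not found by symbol in the count table and so were not tested. CXCL16 rose in H1650 by 0.67, and CXCL13 missed the threshold in both lines (log2 0.80 in H1650 and 0.59 in A549).

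A further list held NF-kB and C/EBP regulators of IL6 and chemokine transcription, with the NF-kB subunits themselves and CEBPG as the only C/EBP gene. Of its 19 genes tested, 15 were higher and 1 lower in H1650, and 13 were higher and none lower in A549. The medians were 0.71 and 0.23. TNFAIP3, the ubiquitin-editing enzyme A20 that restrains NF-kB, rose to 294 ± 38.7 CPM against 40.3 ± 1.95 CPM in H1650 and to 37.9 ± 1.52 against 21.5 ± 0.423 CPM in A549 (SD, n = 3 each, log2 2.87 and 0.82). Its partner TNIP1 rose by 1.50 and 0.37, the kinase IRAK2 by 1.76 and 0.82, and NFKBIZ, a nuclear cofactor that IL6 induction needs in mouse, by 2.36 and 0.79. Regulators of mRNA stability had 7 of 12 genes higher and 3 lower in H1650, and 3 higher and 2 lower in A549. Over all genes the shares were 31.0% and 31.3% in H1650 and 16.4% and 15.9% in A549. ZFP36, which binds AU-rich elements and speeds decay, rose in H1650 (log2 1.82, adjusted p = 1.02e-25), with a log2 value of 0.12 in A549 (adjusted p = 0.125). ZC3H12A, the endonuclease Regnase-1 that cleaves IL6 mRNA, rose in H1650 to 92.4 ± 5.68 CPM against 32.6 ± 1.26 CPM and fell in A549 to 64.8 ± 3.17 CPM against 79.9 ± 3.41 CPM. The difference of these responses was 1.80 (adjusted p = 4.7e-20). ELAVL1, or HuR, which stabilizes such mRNAs, fell by 0.61 in H1650 and 0.15 in A549. ZFP36L1 and ZC3H12C rose in both lines, by 0.75 and 0.52 in H1650 and by 0.35 and 0.41 in A549.

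**Figure D4:**
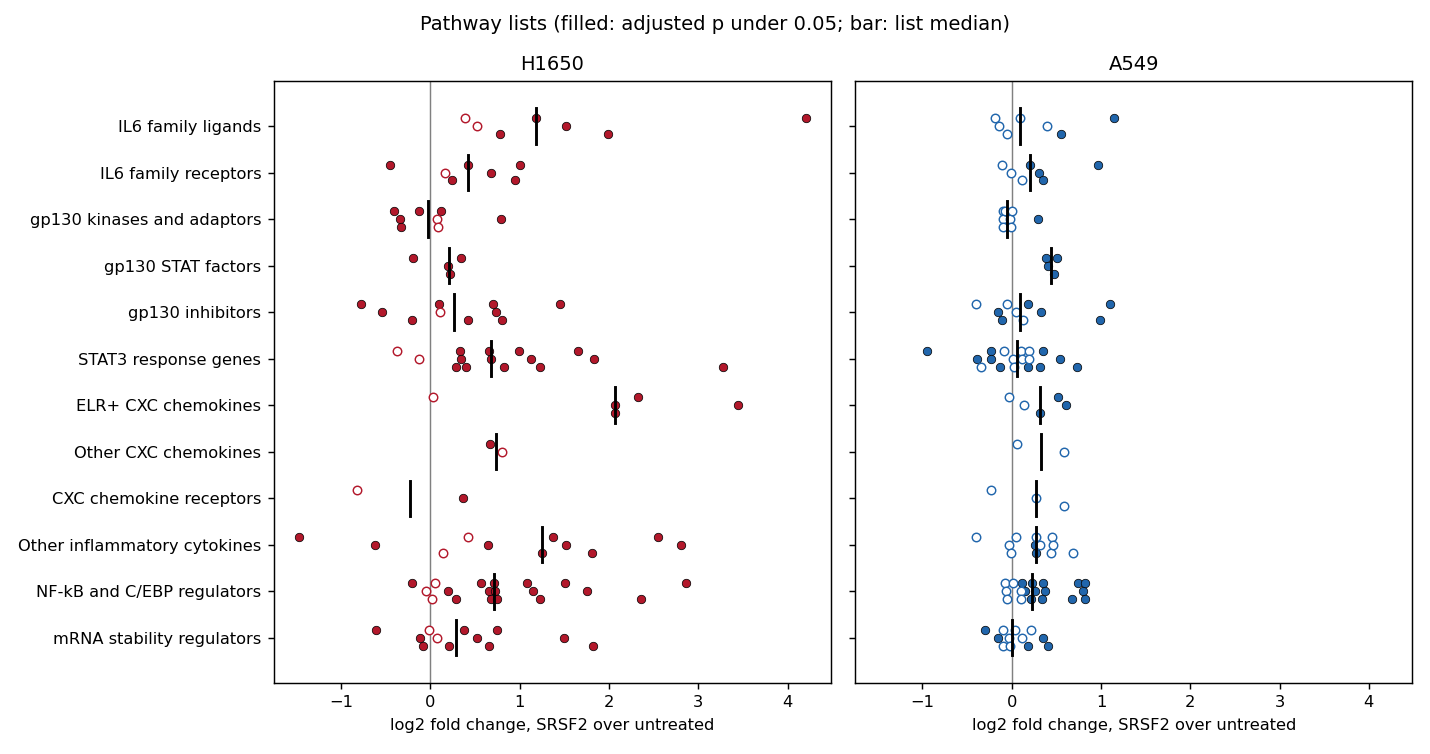
log2 fold change of SRSF2 over untreated libraries for each tested gene of 12 pathway lists in H1650 (left) and A549 (right), filled where the adjusted p was under 0.05, with a bar at each list median; 5 genes with at most 3 counts in a group of H1650 (FGA, FGB, SAA1, CXCR4 and CSF3) are left out there. Points spread further to the right in H1650, where the median of the ELR chemokines is 2.07, than in A549, where it is 0.32.

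The genes whose pattern over the 12 libraries was most like that of IL6, CXCL8 or SOCS3 were found by the root mean square difference of log2 CPM after centring each gene on its mean. For IL6 these were RSAD2 (0.82), KRT16 (0.87) and OASL (1.13), against a median of 5.10 over all genes. RSAD2, an interferon-induced antiviral enzyme, averaged 1666 CPM in H1650 SRSF2, 65.4 in untreated H1650, 2.07 in A549 SRSF2 and 0.301 in untreated A549 cells. OASL, also interferon-induced, averaged 3104, 242, 8.89 and 0.719 CPM in that order of groups, and the keratin KRT16 1524, 308, 1.38 and 1.07 CPM. Like IL6, these 3 genes were far lower in both A549 groups than in either H1650 group. For CXCL8 the closest genes were DUSP8 (0.12), BIRC3 (0.15) and ANKRD33B (0.20), against a median of 0.99. BIRC3, a ubiquitin ligase of the TNF receptor complex, averaged 174, 35.4, 191 and 115 CPM in the same order. As with CXCL8, its SRSF2 levels were similar in the lines and its level in untreated H1650 cells was lowest. For SOCS3 the closest were LINC02888 (0.15), CRISPLD2 (0.24) and RPL12P14 (0.26), against a median of 0.88, and all 3 averaged under 15 CPM in each group. RPL12P14 is a pseudogene that can share reads with its parent gene.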

How the data were processed

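RNA of A549 and H1650 cells, 3 libraries in each of 4 groups, was sequenced by the authors after polyadenylated selection. The submitters' processing notes name GRCh38, featureCounts 2.0.0, fastp 0.20.1 and STAR 2.7.7a for the raw counts per gene that the authors deposited. The annotation release, strand setting and gene filter are not given in the sources used here. FPKM values were also deposited by the authors. They divide by the whole gene with its introns for 11519 of 16139 genes, so FPKM served as an alternative only. Symbols came from a gene name table (16076 IDs) and GENCODE 29 (63 IDs), and 460 IDs have none.

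Counts were fitted with edgeR 4.0.16 in R 4.3.3 (filterByExpr with a minimum count of 10, TMM scaling, 12 libraries, 1 mean per group, 8 residual degrees of freedom). A gene was called at a Benjamini-Hochberg adjusted p under 0.05 over 15991 genes. Standard errors are approximate, the size of the log2 fold change divided by the root of edgeR's F, and 95% intervals as 1.96 SE. CPM per kilobase used the exon union of GENCODE 29. Nothing says that replicates came from separate cultures, so p-values measure the spread between these libraries, which may be technical. Replicates of a group differed by more than sampling noise (chi-square over degrees of freedom from 2.29 to 8.14). Total counts ran from 23876899 to 32079027. For large differences that rest on few counts, these approximate SEs can fall below the counting error. The pipeline was tested on simulated data.

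The genes, lists and alternatives were chosen with earlier results of these data known. From each list, the text names up to 4 genes with the smallest adjusted p in H1650 and up to 2 with the largest called change in A549. The closest patterns are the 3 genes with the smallest root mean square difference for each of IL6, CXCL8 and SOCS3. Some genes that this rule names are not reported here. CCND1, FGA, FGB, FGG and ITGAM were named after their values were seen. Alternatives were RLE and upper quartile scaling, DESeq2 1.42.0, no count filter, each line alone, a replicate block, log2(FPKM + 1) and log2(FPKM + 0.1) with limma 3.58.1, and each library left out. Promoters are RefSeq sequences on GRCh38.p14, and 9 of the 10 genes had an entry.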

Additional observations from a re-analysis of the deposited data

Results flagged for a closer look

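The response to SRSF2 over-expression differed between H1650 and A549 for 9 of the 10 genes, by edgeR's test of the difference itself (H1650 minus A549, adjusted over all genes). The differences on the log2 scale were 3.06 for IL6 (adjusted p = 1.11e-05), 2.93 for CXCL2, 2.10 for CXCL1, 1.89 for LIF, 1.47 for CXCL8, 0.88 for IL6R, 0.47 for IL6ST, 0.34 for SOCS3 (adjusted p = 0.00175) and -0.29 for STAT3 (adjusted p = 1.8e-05). In the same comparison 47.5% of all genes were called.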

How the results depend on the processing

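Every called direction of the 10 genes within H1650 and between the untreated lines held under each of the alternatives run. In A549, IL6 lost its call with log2(FPKM + 1) (0.08, adjusted p = 0.427) and without any 1 of 4 A549 libraries. IL6ST lost it with both FPKM fits (adjusted p of 0.0769 and 0.0806), and LIF gained one with each line fitted alone (adjusted p = 0.0369). The larger SOCS3 response of H1650 missed the threshold with log2(FPKM + 1) (0.19, adjusted p = 0.0716). CXCL8 between the SRSF2 groups, not called and near 0, turned positive with no count filter (0.000386), and when single libraries were left out (from -0.0645 to 0.024, above 0 without H1650 SRSF2 replicate 3 or A549 SRSF2 replicate 2), and was called lower with upper quartile scaling (-0.14) and both FPKM fits (-0.13 and -0.14). Upper quartile scaling moved the median of all genes between the lines to -0.13 untreated and -0.17 with SRSF2, against -0.04 and -0.06 with TMM. CXCL2 lost its call there under these 3 settings, and IL6ST with no filter. The cause of these changes was not tested. Leaving out each library gave 10 of the 10 genes called in H1650, 6 to 7 in A549 and 9 for the difference. The replicate numbers are not shown to pair samples (correlations of same-numbered residuals from -0.0197 to 0.0237 within a line and from -0.0272 to 0.0446 between lines), and a replicate block within each line gave 9936 genes called in H1650 against 9957, 5185 in A549 against 5162, and 7624 for the difference against 7601. IL6 in A549 is limited by depth, at 5 to 23 counts a library.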

Other observations

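Keratin and junction genes, listed as markers of epithelial cells, did not move together. KRT19 fell in H1650 to 625 ± 21.98 CPM with SRSF2 against 1304 ± 5.60 CPM untreated, and rose in A549 to 121 ± 5.09 CPM against 97.9 ± 1.23 CPM (SD, n = 3 each). CLDN4, a tight junction gene, rose in H1650 (log2 0.81) and in A549 (log2 0.26). EPCAM, an adhesion molecule of epithelial cells, rose in H1650 (log2 0.23) and fell by 0.63 in A549, to 3.72 ± 0.672 CPM against 5.72 ± 0.451 CPM untreated.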
